A study of Homo sapiens with 6 samples.

Results

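Fatty acid synthesis, desaturation, elongation and activation were followed through 9 enzymes in HepG2 cells with and without the kinase FN3K. The enzymes were ACSS2, ACACA, FASN, SCD, ELOVL1, ELOVL5, ACSL1, ACSL3 and ACSL5, chosen by gene name, and all 9 had a row among the 6357 loci of the table, of which 4926 carry a gene name. Steady-state RNA was measured by RNA sequencing of poly(A)-selected RNA, as FPKM (fragments per kilobase of transcript, scaled to the mapped fragments of the library). HepG2 is a line grown from a human liver tumour. The WT group is the unedited line, and the FN3K KO group is the same line after CRISPR knockout of FN3K, which encodes a kinase that phosphorylates sugars attached to the lysines of proteins, which leads to their removal. Each group had 3 samples, grown as plates in the same medium with fetal bovine serum. The number of knockout clones is not given in the sources used here, so a property of a clone and an effect of losing FN3K cannot be told apart. No source says that the 3 samples of a group came from separate cultures over time, so the p-values measure the spread between these samples, which may be technical. In bulk RNA, fewer cells of a type and less RNA per cell cannot be told apart.

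FN3K itself was at 27.7, 21.9 and 23.2 FPKM in the WT libraries and at 0.782, 1.03 and 0.704 FPKM in the FN3K KO libraries, so every library matched its label. Of 9 hepatocyte markers, 8 were listed by name (ALB was not), and their summed level was 7866 to 7985 FPKM in WT and 14512 to 15738 FPKM in FN3K KO. These markers went different ways: 5 were called higher, with AFP (log2 fold change 2.01) and APOA1 (1.14) making up most of the rise in the sum. TTR had the largest log2 fold change of the markers (2.90), from a mean of 55.1 FPKM in WT to 419 FPKM in FN3K KO. HNF4A was called lower (-0.35), and SERPINA1 (0.08) and TF (-0.03) did not pass the test. With the library adjustment described below, the calls of HNF4A and of FGB (called higher at 0.52) were lost. Of 10 markers of mesenchymal, endothelial, immune and other epithelial cells, 9 were not listed by name. The remaining one, the keratin gene KRT19, was at 35.9 to 40.9 FPKM in WT and 127 to 142 FPKM in FN3K KO. The part of these shifts in the results below was not tested. The FPKM of the loci summed to between 289983 and 314164 per library, and sequencing depth is unknown because the table holds no counts.

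Cells build fatty acids in the cytosol from acetyl-CoA. ACSS2 makes acetyl-CoA from acetate, ACACA carboxylates it to malonyl-CoA in the rate-limiting step, and FASN joins these units into palmitate. SCD then converts saturated acyl-CoAs into monounsaturated ones, while the ELOVL enzymes run the condensation step that lengthens acyl chains in the endoplasmic reticulum. The ACSL enzymes attach coenzyme A to free long-chain fatty acids, which is needed before these can be stored, lengthened or oxidised. In liver, many genes of synthesis and desaturation are known targets of the SREBP transcription factors.

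Comparing FN3K KO with WT, 5 of the 9 enzymes were higher (ACSS2, SCD, FASN, ELOVL5 and ELOVL1), 1 was lower (ACSL1), and 3 did not pass the test (ACACA, ACSL3 and ACSL5). The test was limma on log2(FPKM + 1) with Benjamini-Hochberg adjustment across the table, and a locus was called when its adjusted p fell below 0.05. Over all 6357 loci the same test called 57.7%, of which 21.2% of all loci were higher and 36.5% were lower. The 6 enzymes called, and none of the other 3, had no overlap between the groups' libraries, which held for 63.4% of all loci in either direction and for 23.6% in the higher direction. A rise of more than 1 log2 unit was called for 3 of the 9 (ACSS2, SCD and FASN) and for 4.25% of all loci. The ordinary linear model with a library adjustment, which is nearer to the test in the study's methods, called 17.7% of loci, and under it the 5 higher enzymes stayed higher, ACSL1 lost its call and ACSL5 gained a call in the lower direction. Of the loci called, 36.7% were higher by limma and 53.8% were higher with the library adjustment. Fold changes below are on the log2(FPKM + 1) scale, which understates the change of genes with low values. The median log2 fold change over all loci was -0.14, and -0.10 after scaling the libraries to a common 75th percentile.

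**Figure D1:**
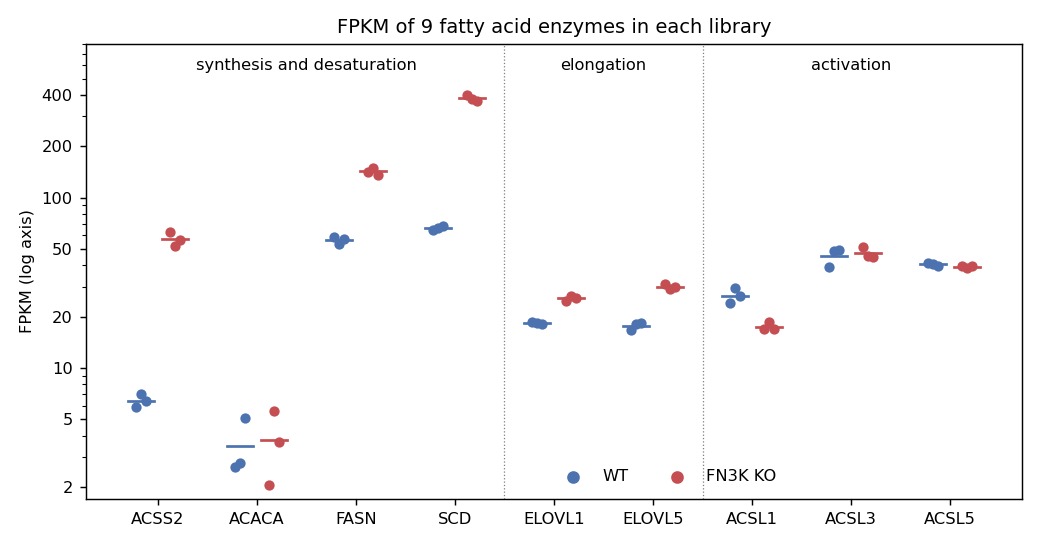
FPKM of the 9 enzymes on a log axis, with 1 point per library for 3 WT and 3 FN3K KO libraries and a line at each group's mean. SCD, FASN, ACSS2, ELOVL1 and ELOVL5 sit higher in FN3K KO with no overlap, ACSL1 sits lower with no overlap, and ACACA, ACSL3 and ACSL5 overlap.

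The upstream sequences of the members are shown for the enzymes at both ends of the response: SCD and ACSS2, with the largest rises among the 9, ELOVL1, with the smallest rise that passed the test, and ACSL1, the one that fell. RefSeq's promoter table (build GRCh38.p14) had an entry for 8 of the 9 members, FASN being the exception, and the 250 bases before the RefSeq start nearest to the paired transcript were searched on both strands. The SCD stretch is chr10:100346983-100347143 on the plus strand, the ACSS2 stretch is chr20:34874739-34874961 on the plus strand, the ELOVL1 stretch is chr1:43368055-43368261 on the minus strand and the ACSL1 stretch is chr4:184826100-184826218 on the minus strand. Each is written 5′ to 3′, and capitals mark a CCAAT box (CCAAT, or ATTGG on the other strand) or the core of a sterol response element (CACNCCAC on either strand), the kind of site that SREBPs are known to bind.
SCD: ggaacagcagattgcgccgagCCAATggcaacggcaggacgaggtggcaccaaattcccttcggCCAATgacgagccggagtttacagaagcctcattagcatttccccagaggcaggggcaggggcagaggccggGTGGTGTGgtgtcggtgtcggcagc
ACSS2: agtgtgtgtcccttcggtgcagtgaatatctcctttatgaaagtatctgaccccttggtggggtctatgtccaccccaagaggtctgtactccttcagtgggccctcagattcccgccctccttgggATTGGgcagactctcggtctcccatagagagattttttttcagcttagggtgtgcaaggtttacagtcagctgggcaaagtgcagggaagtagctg
ELOVL1: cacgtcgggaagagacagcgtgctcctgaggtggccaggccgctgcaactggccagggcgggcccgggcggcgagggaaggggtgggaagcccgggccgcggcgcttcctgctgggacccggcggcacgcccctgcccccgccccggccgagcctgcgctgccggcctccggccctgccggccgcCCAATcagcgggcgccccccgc
ACSL1: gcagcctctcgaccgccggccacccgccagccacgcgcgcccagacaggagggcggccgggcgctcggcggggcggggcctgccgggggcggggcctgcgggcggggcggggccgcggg

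In these 250 bases a CCAAT box was found in 6 of 8 members (ACSS2, ACACA, SCD, ELOVL1, ELOVL5 and ACSL3) and in 11230 of all 35097 RefSeq promoters. The GC box GGGCGG was found in 6 of 8 (ACSS2, ACACA, SCD, ELOVL1, ACSL1 and ACSL3), in 42.6% of all promoters and in 66.9% of those of genes named in the table. The core CACNCCAC was found in SCD alone, at position -114 counted from the RefSeq start, and in 4.87% of all promoters. The longer TCACNCCAC, which contains that core, was found in none of the 8 and in 0.883% of all promoters. The E-box CACGTG was found in ELOVL5 alone (6.34% of all), and TCANNTGA in none of the 8 (6.12% of all). Among promoters of genes named in the table the shares were 9.03% for CACGTG and 4.7% for TCANNTGA. They were 33.6% for the CCAAT box, 4.59% for CACNCCAC and 0.855% for TCACNCCAC. The windows also hold annotated exon of the same gene, from 25 bases in ACACA to 229 in ELOVL5, with 151 in ACSL1, 109 in SCD and 102 in ACSL3. The E-box and both CCAAT boxes of ELOVL5 and the CCAAT box of ACSL3 lie in exon, downstream of the paired transcript's start. The same holds for both GC boxes of SCD. The CACNCCAC core of SCD spans the start of its paired transcript, so it lies partly in exon. The CCAAT box of ELOVL1 spans the edge of annotated exon. Some GC boxes of ELOVL1 and ACSL1 also lie in exon, while others of these genes do not. The start used for ACSL5 is 1250 bases from that of its paired transcript. RefSeq lists more than 1 start for ACSS2 (2), ACACA (3), ACSL1 (5) and ACSL5 (2), and their windows lie inside the annotated gene. Sites near their other starts were not searched. These are matches of letters in 1 window, and the members with a CCAAT box include enzymes that rose and enzymes that did not pass the test.

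ACSS2 (chr20:34872146-34927962, plus strand, GENCODE 29 on GRCh38) had the largest rise of the 9 enzymes. It was at 5.91, 6.98 and 6.41 FPKM in the WT libraries and at 62.9, 52.1 and 56.6 FPKM in the FN3K KO libraries. Every FN3K KO library was far above every WT library. The mean went from 6.43 ± 0.534 to 57.2 ± 5.43 FPKM (± values are SD over 3 libraries). The log2 fold change was 2.97 (SE 0.09, 95% interval 2.77 to 3.16, limma adjusted p = 4.8e-08). By mean FPKM it moved from place 4767 to place 713 among the 6357 loci, and by log2 fold change it was at place 8 from the top. The transcript that the table pairs with the locus is annotated as a target of nonsense-mediated decay, and the gene overlaps GGT7 on the opposite strand, so reads of both could share the locus if strand was not used in counting.

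ACACA (chr17:37084988-37406818, minus strand) was the lowest of the 9 enzymes in both groups. It was at 2.603, 2.75 and 5.07 FPKM in WT and at 2.05, 5.57 and 3.65 FPKM in FN3K KO. The groups overlapped over nearly their whole range, and each group spread more than its mean differed from the other's. The log2 fold change was 0.06 (SE 0.31, 95% interval -0.63 to 0.76, limma adjusted p = 0.87). With 1 library left out at a time it lay between -0.21 and 0.35, and with library adjustment it was 0.84 (adjusted p = 0.29), so no direction can be given for the rate-limiting enzyme of the pathway at this precision.

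FASN (chr17:82078333-82098332, minus strand) was at 58.4, 53.4 and 57.5 FPKM in WT and at 142, 150.1 and 136 FPKM in FN3K KO. All 3 FN3K KO libraries were above all WT libraries. The mean went from 56.4 ± 2.68 to 143 ± 7.10 FPKM. The log2 fold change was 1.32 (SE 0.06, 95% interval 1.19 to 1.46, limma adjusted p = 6.1e-07). FASN moved from place 754 to place 269 by level.

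SCD (chr10:100347124-100364834, plus strand) had the highest level of the 9 enzymes in both groups. It was at 64.7, 66.8 and 68.0 FPKM in WT and at 403, 382 and 372 FPKM in FN3K KO. The spread within either group was small beside the gap between them. The mean went from 66.5 ± 1.66 to 386 ± 16.0 FPKM. The log2 fold change was 2.52 (SE 0.05, 95% interval 2.39 to 2.64, limma adjusted p = 1.9e-08). This placed SCD at rank 29 of 6357 by log2 fold change, and at rank 96 by level in FN3K KO against 635 in WT. The annotations of FASN and SCD overlap no other annotated gene.

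Summed within each library, the 4 enzymes of synthesis and desaturation went from 132, 129.9 and 137 FPKM in WT to 611, 589 and 568 FPKM in FN3K KO. SCD made up most of the FN3K KO sum, and ACACA changed it little. The median log2 fold change of the 4 was 1.92, beside the -0.14 of all loci, with 3 called higher and 1 not passing the test.

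**Figure D2:**
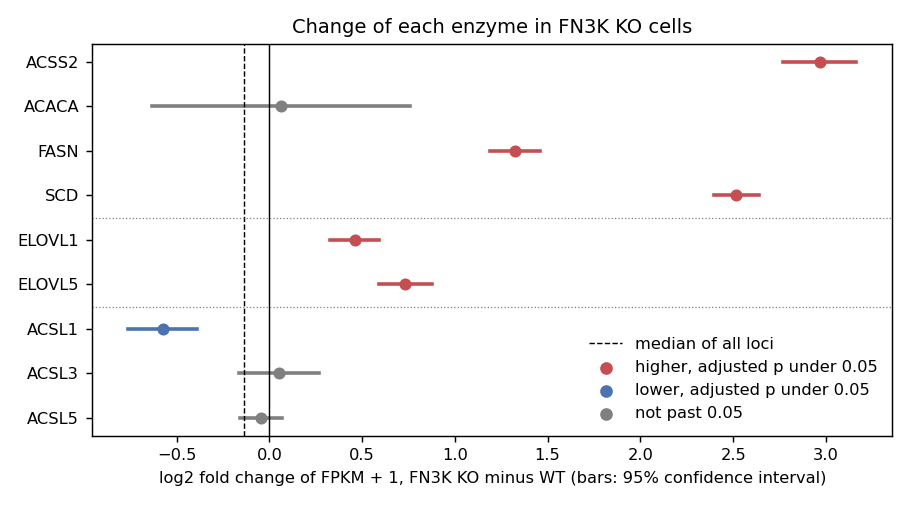
Log2 fold change (FN3K KO minus WT) of the 9 enzymes, ordered by role, with bars for the 95% interval from limma and a dashed line at the median of all loci (-0.14). Values run from 2.97 for ACSS2 to -0.57 for ACSL1, and the bars of ACACA, ACSL3 and ACSL5 cross 0.

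The elongases rose by less than 1 log2 unit. ELOVL1 (chr1:43363397-43368074, minus strand), which lengthens saturated and monounsaturated very-long-chain acyl-CoAs, was at 18.6, 18.4 and 18.1 FPKM in WT and at 24.8, 26.4 and 25.7 FPKM in FN3K KO. Its log2 fold change was 0.46 (SE 0.06, 95% interval 0.33 to 0.59, limma adjusted p = 2.1e-04). ELOVL5 (chr6:53267398-53349179, minus strand), which lengthens polyunsaturated acyl-CoAs, was at 16.7, 18.0 and 18.3 FPKM in WT and at 31.1, 29.1 and 29.9 FPKM in FN3K KO. Its log2 fold change was 0.73 (SE 0.06, 95% interval 0.59 to 0.87, limma adjusted p = 2.1e-05). For both elongases the FN3K KO libraries lay above all WT libraries. Their summed level was 35.3, 36.4 and 36.4 FPKM in WT and 55.9, 55.5 and 55.5 FPKM in FN3K KO, and the median of the pair was 0.60.

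Of the 3 acyl-CoA synthetases, none rose and 1 fell. ACSL1 (chr4:184755595-184826818, minus strand), the main form in liver and fat, was at 23.9, 29.3 and 26.3 FPKM in WT and at 16.9, 18.5 and 16.96 FPKM in FN3K KO. Every FN3K KO library was below every WT library. Its log2 fold change was -0.57 (SE 0.08, 95% interval -0.76 to -0.39, limma adjusted p = 4.3e-04). Under the linear model with library adjustment the log2 fold change was -0.41 with an adjusted p of 0.11, which ends the call.

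ACSL3 (chr2:222860934-222944639, plus strand), known for its place on lipid droplets, was at 38.9, 48.3 and 49.6 FPKM in WT and at 51.0, 45.4 and 45.0 FPKM in FN3K KO. The groups overlapped, with WT replicate 1 the lowest library and FN3K KO replicate 1 the highest. The log2 fold change was 0.05 (SE 0.10, 95% interval -0.16 to 0.27, limma adjusted p = 0.66). ACSL5 (chr10:112374018-112428380, plus strand), a form found on mitochondria and the endoplasmic reticulum, was at 41.5, 40.6 and 39.7 FPKM in WT and at 39.8, 38.7 and 39.5 FPKM in FN3K KO. The groups overlapped by a small margin and differed by a log2 fold change of -0.04 (SE 0.05, 95% interval -0.16 to 0.07, limma adjusted p = 0.47). With library adjustment ACSL5 was called lower at -0.09 (adjusted p = 0.020), and after 75th percentile scaling its value was 0.0025, so its direction depends on the scaling.

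The summed level of the 3 synthetases overlapped between the groups, with 104, 118 and 116 FPKM in WT and 108, 103 and 101 FPKM in FN3K KO. ACSL1 made up 22.8% to 24.8% of that sum in WT and 15.7% to 18.0% in FN3K KO. ACSL3 made up 37.3% to 42.9% and 44.2% to 47.4%, and ACSL5 34.3% to 39.7% and 36.9% to 38.9%. The shares of ACSL1 and ACSL3 did not overlap between the groups, while those of ACSL5 did. The median log2 fold change of the 3 was -0.04. ACSL1 and ACSL3 have annotated antisense genes and ACSL5 overlaps ZDHHC6 on the opposite strand. Whether the counting used strand is not given in the sources used here.

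By level, on the per-length FPKM scale, the order in WT was SCD, FASN, ACSL3, ACSL5, ACSL1, ELOVL1, ELOVL5, ACSS2 and ACACA. In that order ACSL3 and ACSL5 overlapped, as did ELOVL1 and ELOVL5, while the libraries of all other neighbours were apart. In FN3K KO the order was SCD, FASN, ACSS2, ACSL3, ACSL5, ELOVL5, ELOVL1, ACSL1 and ACACA, with no neighbours overlapping. ACSS2 passed 5 enzymes to reach the third place, and ACSL1 dropped below both elongases.

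Ratios of 2 enzymes within a library do not depend on how that library was scaled, so 10 pairs were compared. In 9 of the 10 the log2 ratio did not overlap between WT and FN3K KO. For those 9 the two-sided exact permutation p was 0.10, the smallest that 3 against 3 can give, and 0.11 after Benjamini-Hochberg adjustment over the 10 pairs, so no pair could pass 0.05. SCD over FASN had a log2 ratio of 0.24 ± 0.09 in WT and 1.43 ± 0.08 in FN3K KO, so that it differed by 1.20. ACSS2 over FASN differed by 1.81, from -3.14 to -1.32. ACACA over FASN differed by -1.27, from -4.09 ± 0.52 to -5.36 ± 0.69.

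Between the classes, the log2 ratio of FASN to ELOVL5 differed by 0.57 (1.67 in WT and 2.25 in FN3K KO), that of FASN to ACSL3 by 1.29 (0.31 and 1.60), and that of FASN to ACSL1 by 1.94 (1.09 and 3.03). FASN was thus 2.13 times ACSL1 in WT and 8.19 times in FN3K KO, from the geometric mean of the ratios. Within the classes, ELOVL5 over ELOVL1 differed by 0.28, from -0.05 ± 0.09 to 0.23 ± 0.10. ACSL3 over ACSL1 differed by 0.65 and ACSL5 over ACSL1 by 0.56. ACSL3 over ACSL5 was the pair that overlapped, with a difference of 0.10 and an exact permutation p of 0.70.

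**Figure D3:**
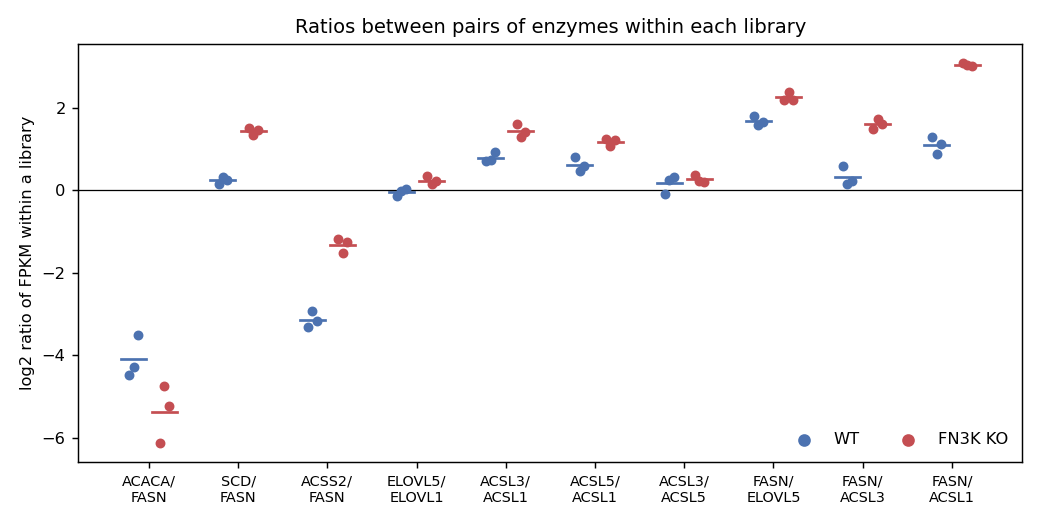
Log2 ratio of FPKM within each library for 10 pairs of enzymes, with 1 point per library and a line at the group mean for WT and FN3K KO. The groups are apart in 9 pairs, from a difference of 0.28 for ELOVL5 over ELOVL1 to 1.94 for FASN over ACSL1, and overlap for ACSL3 over ACSL5.

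The other genes of the pathway were read from 8 lists holding 76 genes, of which 44 had a row by name. Of these 44, 28 were higher, 7 were lower and 9 did not pass the test, with a median log2 fold change of 0.38 beside -0.14 over all loci. The shares called over all loci were 21.2% higher and 36.5% lower. With library adjustment 18 of the 44 were called higher and 2 lower. Of the genes named from these lists, those that lost their call with that adjustment were PGD, IDH1, HACD1, CYB5R3, SLC27A2, SLC27A4, ACOT7, LPIN1, DGAT1, SREBF1 and MBTPS1.

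Genes listed for acetyl-CoA and NADPH supply were higher along with ACSS2 and FASN. Of 6 genes listed for acetyl-CoA and malonyl-CoA supply, 3 had a row by name, and all 3 were called higher. ACSS1, ACACB and MLYCD had no row by name. ACLY, which cleaves citrate into acetyl-CoA, was at 27.0, 29.9 and 28.4 FPKM in WT and at 90.6, 93.8 and 86.3 FPKM in FN3K KO, a log2 fold change of 1.63 (SE 0.06, limma adjusted p = 1.5e-07). ACSS3, an acyl-CoA synthetase of mitochondria, had a log2 fold change of 0.76, and SLC25A1, which exports citrate from mitochondria, one of 0.73. Among the listed NADPH sources, IDH1 had a log2 fold change of 0.77 and PGD one of 0.23, and both were called higher. FASN and the elongation cycle draw on reducing power of this kind.

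Of the other 7 elongation genes listed by name, 4 were higher, 1 was lower and 2 did not pass the test, with a median of 0.26. ELOVL6, which lengthens palmitate, was at 0.998, 1.34 and 1.13 FPKM in WT and at 6.10, 5.26 and 5.38 FPKM in FN3K KO. Its log2 fold change of 1.61 (SE 0.18, limma adjusted p = 1.1e-04) was above those of ELOVL1 and ELOVL5, at a much lower level. Of the enzymes that complete each cycle, the reductase HSD17B12 was at 0.67, the dehydratase HACD3 at 0.27 and the dehydratase HACD1 at -0.74.

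Of the other 5 desaturation genes listed by name, 4 were higher and 1 was lower, with a median of 0.49. FADS1, the desaturase that makes arachidonate, was at 10.4, 12.7 and 12.0 FPKM in WT and at 36.3, 36.01 and 34.1 FPKM in FN3K KO, a log2 fold change of 1.52 (SE 0.08, limma adjusted p = 1.4e-06). Of the genes listed as electron donors, CYB5B, the cytochrome b5 of the mitochondrial outer membrane, was at 1.06 and CYB5R3 at 0.49. CYB5A, named after its value was seen, was called higher at 0.37. FADS3 was lower at -0.58. FADS2 had no row by name.

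Of 10 other acyl-CoA synthetases listed, 2 had a row by name, and ACSL4 was not among them. These 2, SLC27A2 and SLC27A4, are transporters that also activate fatty acids. They were called higher at log2 fold changes of 0.33 and 0.29. The SLC27A2 call was lost without the variance trend and without any of 4 of the 6 libraries, leaving 1 of the 2 called there. Among 5 thioesterases, which remove coenzyme A again, 3 were higher (ACOT1 at 1.16, ACOT2 at 0.70 and ACOT13 at 0.67), 1 was lower (ACOT7 at -0.28) and 1 did not pass the test. ACOT1 and ACOT2 are near-identical copies, so the split of reads between them is uncertain.

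Of 8 genes that bind acyl-CoA or place it into glycerolipids, 5 were higher, 1 was lower and 2 did not pass the test, with a median of 0.53. DBI, the acyl-CoA binding protein, was at 56.8, 67.3 and 66.6 FPKM in WT and at 167, 156 and 156 FPKM in FN3K KO, a log2 fold change of 1.32 (SE 0.07). DGAT1 and DGAT2, which make triglyceride, were at 0.56 and 0.60. The phosphatidate phosphatase LPIN1 had a log2 fold change of 1.56, with WT libraries at 0.187, 2.56 and 2.47 FPKM that did not agree among themselves, and FN3K KO libraries at 6.38, 6.65 and 5.62 FPKM. Without WT replicate 1 its log2 fold change was 1.04, still called.

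**Figure D4:**
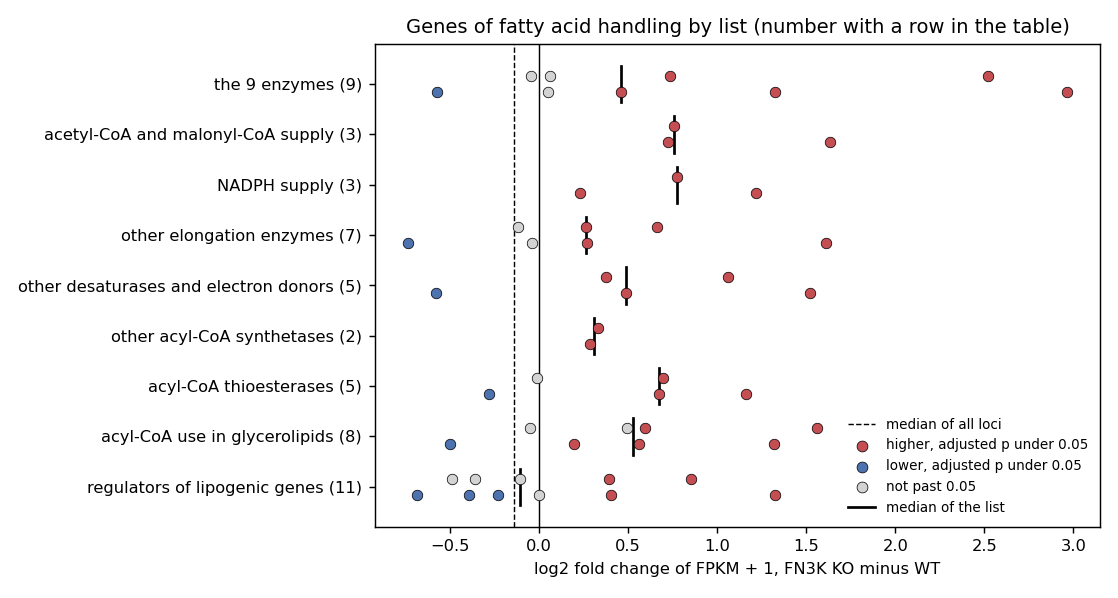
Log2 fold change (FN3K KO minus WT) of the 9 enzymes and of each listed pathway gene with a row in the table, 1 point per gene, in red where called higher, blue where called lower and grey otherwise, with a black bar at each list's median and a dashed line at the median of all loci. The lists of acetyl-CoA and NADPH supply lie wholly above 0, while the list of regulators spreads from -0.69 to 1.33. Its highest gene is the lipase PNPLA3, followed by SREBF2 at 0.85.

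The regulators did not move together: of 11 listed by name, 4 were higher, 3 were lower and 4 did not pass the test, with a median of -0.11. SREBF2, which encodes the SREBP best known for the sterol pathway, was at 26.7, 28.5 and 29.1 FPKM in WT and at 51.2, 53.3 and 49.95 FPKM in FN3K KO, a log2 fold change of 0.85 (SE 0.06, limma adjusted p = 5.5e-06). SREBF1, which encodes the SREBP best known for fatty acid genes, was at 24.4 ± 2.37 FPKM in WT and 32.3 ± 2.14 FPKM in FN3K KO, with a log2 fold change of 0.39. MBTPS1, the protease that cleaves SREBPs, was lower at -0.69, and SCAP, which escorts them, was lower at -0.39. SREBF1 and SCAP are named after their values were seen. PNPLA3 was higher at 1.33 and is counted in this list, though it is a lipase of lipid droplets and not a regulator of genes. The next highest of the list was SREBF2. MID1IP1, which promotes the activity of ACACA, was higher at 0.40. With library adjustment the calls of SREBF1 and MBTPS1 were lost, at adjusted p = 0.14 and 0.11.

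The loci whose profile over the 6 libraries lay nearest to each of 4 enzymes were taken by Euclidean distance between centred log2(FPKM + 1) values. For ACSS2 these were the hepatocyte marker TTR (distance 0.26), CYP17A1 (0.30) and HMGCS1 (0.30), the last an enzyme of cholesterol synthesis. For SCD they were FEN1 (0.08), FDFT1 (0.14) and DHCR7 (0.17), the latter a pair of cholesterol synthesis enzymes. For FASN they were MAGED1 (0.11), TIMP2 (0.17) and CYP3A5 (0.21), and for ACSL1 they were CCDC6 (0.08), NR3C1 (0.09) and FBXL6 (0.09). CCDC6 and NR3C1, called lower by limma, lost that call with library adjustment (adjusted p = 0.10 and 0.11), as ACSL1 did. With 6 libraries in 2 groups, a small distance mostly reflects a like log2 fold change.

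The nearest profile to SCD needs a limit of its own. FEN1, a nuclease of DNA replication, went from a mean of 4.90 to 33.4 FPKM, a log2 fold change of 2.54. In GENCODE 29 the gene FADS2 (chr11:61792980-61867354), the desaturase that acts before FADS1, overlaps FEN1 (chr11:61792637-61797244) on the same strand. Since FADS2 has no row by name, the value listed under FEN1 may hold reads of either gene and is uncertain.

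FASN lies on the same chromosome arm as the edited gene, 637 kb from FN3K (chr17:82735575-82751197). Between the 2 genes lie 7 named loci, of which 1 was higher, 3 were lower and 3 did not pass the test, beside 57.7% of all loci called. The highest was SLC16A3, a lactate transporter, with a log2 fold change of 0.60, and the lowest was HEXDC with -0.59, whose call was lost with library adjustment (adjusted p = 0.14). Their median was -0.13, next to -0.14 for all loci, and 0 of the 7 reached the 1.32 of FASN. OGFOD3, HEXDC and C17orf62 overlap at their edges, so their reads may be shared.

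**Figure D5:**
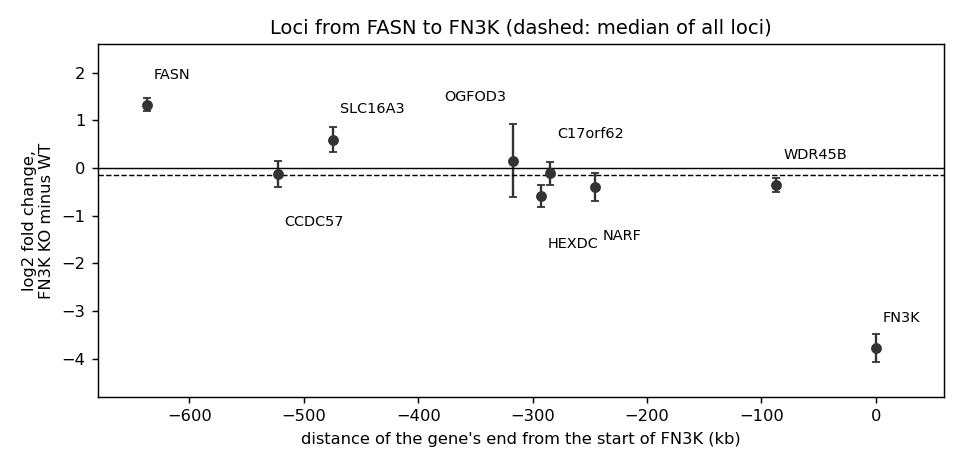
Log2 fold change (FN3K KO minus WT) of FASN, FN3K and the 7 named loci between them against distance from the start of FN3K in kb, with bars for the 95% interval and a dashed line at the median of all loci. FASN is at 1.32 and FN3K at -3.78, and the loci between run from -0.59 to 0.60.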

How the data were processed

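RNA of 3 WT and 3 FN3K KO HepG2 samples was sequenced after poly(A) selection. The authors aligned reads with HISAT2 and assembled and quantified transcripts with StringTie 2.0.6 on GRCh38.p5, per the submitters' processing notes, and deposited gene-level FPKM from Ballgown. The filter that left 6357 loci, the number of reads and the strand setting are not given in the sources used here. The lowest mean of a locus was 0.414 FPKM. Low values showed no steps of whole reads: among the 300 lowest loci at most 2 shared a ratio (4 decimals) in any of 15 library pairs, so no count test was run.

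Values were tested as log2(FPKM + 1) with limma 3.58.1 (R 4.3.3, lmFit and eBayes with a variance trend), Benjamini-Hochberg adjusted over all loci and called under 0.05. Ratios were tested by two-sided exact permutation with scipy 1.17.1. On simulated data with known changes at 200 of the 6357 loci for WT against FN3K KO, limma recovered 58.2% of changes of 0.5 log2 units and 97% of changes of 1 or 2. The library-adjusted model recovered 2.99%, 22.4% and 43.9%. The simulated noise held no shifts shared by a whole library, and far fewer loci changed than were called in the data. The simulation thus cannot say which model is nearer the truth for these data. Gene positions came from GENCODE 29, matched by transcript for 4892 loci, and promoters from RefSeq GRCh38.p14.

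The members and lists were chosen with earlier results of these data known. The text names the 9 members, FN3K, called genes of each list (up to 4 with the largest changes), the 3 nearest profiles of ACSS2, SCD, FASN and ACSL1, and the highest and lowest locus between FASN and FN3K. Alternatives were a pseudocount of 0.1, a mean of at least 1 FPKM, a common 75th percentile, no variance trend, library adjustment, a replicate block and leaving out each library. Protein sequences were not analysed here. Some genes that meet the naming rule are not reported here.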

Additional observations from a re-analysis of the deposited data

How the results depend on the processing

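ACSS2, SCD, FASN, ELOVL1 and ELOVL5 kept their direction and their call under all 12 alternatives. Library adjustment called 1127 loci (606 higher, 521 lower) against 3670 (1348 and 2322) with limma. Of the listed pathway genes it called 18 higher and 2 lower, against 28 and 7. It left ACSL1 at -0.41 (adjusted p = 0.11) without a call and called ACSL5 lower at -0.094. Its calls were 53.8% higher, against 36.7% with limma and 41.7% after scaling to a common 75th percentile. The median of the elongases moved from 0.60 to 0.64 under that scaling, 0.62 with library adjustment and 0.62 with a pseudocount of 0.1, and the median of the synthetases and ACSL5 turned to 0.0025 under the scaling. Leaving out 1 library gave 3090 to 3575 called loci, 1194 to 1261 higher and 1831 to 2319 lower, ACACA from -0.21 to 0.35, ACSL3 from -0.057 to 0.11, and ACSL3 over ACSL5 from -0.028 to 0.18. The cause of these shifts was not tested. Depth is unknown, so counting error cannot be given.

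Listed genes that never passed the test also changed sign. With library adjustment these were ACOT8 (0.21), AGPAT3 (0.014), NR1H2 (-0.15), NR1H3 (0.35) and TF (0.024), and after 75th percentile scaling ACOT8 (0.036) and TF (0.020). Leaving out 1 library gave ACOT8 from -0.094 to 0.035, ELOVL7 from -0.18 to 0.035, NR1H2 from -0.19 to 0.11 and TF from -0.063 to 0.0078.

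The replicate numbers did not pair the samples: deviations of same-numbered libraries from their group means correlated at 0.00958, 0.00606 and 0.0458. Under a replicate block 1365 loci were higher and 2342 lower, 3707 in all, and no call of a member changed.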
